A study of Mus musculus with 15 samples.

Results

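The 10 genes described here act in heme breakdown, iron storage and iron transport, and their mRNA was followed in RAW264.7 mouse macrophages exposed to silica nanoparticles. They were picked by gene name for these functions, with earlier results of these data known. Their shares are therefore set beside those of all genes as description and not as a test. All 10 were among the 13342 genes of the deposited count table and among the 12798 that passed the filter on low counts. The genes are Hmox1 and Blvrb for heme breakdown, Fth1, Ftl1 and Ncoa4 for iron storage, Slc40a1 for export, Slc11a1 and Slc11a2 for transport out of vesicles, and Tfrc and Ireb2 for uptake and sensing. With the mesoporous particle MSN500, 8 of the 10 rose and 1 fell against untreated cells, where 42.9% of all genes tested were called either way. With its pegylated form MSN-PEG500, 7 rose and 0 fell (34.4% of all genes). With nonporous Stober50, 4 rose and 0 fell (7.57% of all genes). With nonporous Stober500, 0 of 10 passed edgeR's quasi-likelihood test, which called 0.00781% of all genes. In that test 4 of 10 had an unadjusted p under 0.05, as had 1526 of the 12798 genes tested. DESeq2 and limma-voom also called 0 of the 10, where they called 97 and 2 of all genes.

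Macrophages recycle iron from engulfed red cells. Heme oxygenase 1 opens the heme ring and frees the iron, which is stored in ferritin shells of heavy and light chains or exported through ferroportin, the only iron exporter known in mammals. Iron bound to transferrin enters through the transferrin receptor and leaves the endosome through a divalent metal transporter. When iron is scarce, iron regulatory proteins bind hairpins called iron-responsive elements: binding in a 5′ UTR blocks translation, and binding in the 3′ UTR of Tfrc protects the mRNA from decay. RNA sequencing reads the mRNA level and not translation, protein or iron, none of which was measured here.

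Hairpins of this kind are shown because iron regulatory proteins are known to bind them in ferritin, ferroportin and Tfrc mRNA; a form of Slc11a2 mRNA is also a known target, through its 3′ UTR, and gave no match here. The search took a bulged C, 5 stem pairs (G with T allowed) and the 6-letter loop CAGTGN with any last letter but G, on the sense strand of GENCODE M21 transcripts (GRCm38). A match lay in a UTR of 133 of 21951 protein-coding genes (0.606%) and of 4 of the 10 members. Fth1, Ftl1 and Slc40a1 each had 1 in the 5′ UTR and Tfrc had 4 in the 3′ UTR. Capitals mark the loop, and each run is 29 bases, 5′ to 3′.
Fth1, 5′ UTR, chr19:9982732-9982760, plus strand: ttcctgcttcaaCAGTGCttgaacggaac
Ftl1, 5′ UTR, chr7:45459779-45459807, minus strand: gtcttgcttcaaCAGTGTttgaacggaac
Slc40a1, 5′ UTR, chr1:45925465-45925493, minus strand: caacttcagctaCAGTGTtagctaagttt
Tfrc, 3′ UTR, chr16:32631219-32631247, plus strand: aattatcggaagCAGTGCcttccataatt
Tfrc, 3′ UTR, chr16:32631598-32631626, plus strand: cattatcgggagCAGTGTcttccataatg
Tfrc, 3′ UTR, chr16:32631663-32631691, plus strand: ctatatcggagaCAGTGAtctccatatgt
Tfrc, 3′ UTR, chr16:32631710-32631738, plus strand: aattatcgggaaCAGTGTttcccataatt
The Fth1 and Ftl1 hairpins share the 5 stem pairs next to the loop and differ in the last loop letter and in letters below the bulged C. The other 6 members held no match to the full pattern of bulged C, paired stem and loop in their annotated transcripts. The loop letters alone, or a hairpin of another form, would not be found by this search.

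RAW264.7 is a mouse macrophage line transformed by Abelson murine leukemia virus, and these cells are known to lack a functional Slc11a1 protein. Cells at passages 6 to 14, grown in medium with fetal bovine serum, were left untreated (control) or given Stober50 (nonporous, 50 nm), Stober500 (nonporous, 500 nm), MSN500 (mesoporous, 500 nm) or MSN-PEG500 (mesoporous, pegylated, 500 nm), with 3 libraries in each of the 5 groups. The dosage labels name 50% of the LC50 dose for each particle. Their values, in µg/ml, are 13.1 (Stober50) and 16.8 (Stober500) for the nonporous particles and 111.8 (MSN500) and 84 (MSN-PEG500) for the mesoporous ones, and the wording leaves unclear whether that value is the amount given or the LC50. Particle and dose therefore cannot be told apart in any comparison with control or between particles. One protocol gives 24 h of exposure and another 4 h, so the time is uncertain.

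Library totals ran from 17683003 to 27253289 counts, at which 3 counts correspond to 0.110 to 0.170 CPM (the count scaled to the library's total count). The log2 changes and folds also use TMM normalization factors, so they can differ from the ratio of printed CPM where changes are small. For Blvrb, mean CPM was 53.6 with MSN-PEG500 and 54.2 in control, while the log2 change was 0.04. Among macrophage markers, 10 of 10 were in the table, with a summed level of 17416 to 18124 CPM in control, 15856 to 16415 CPM with MSN500, 15154 to 16186 CPM with MSN-PEG500 and 18130 to 19300 over both Stober groups; the part of this lower marker sum in the mesoporous results was not tested. No erythroid marker, hemoglobin genes included, and no hepatocyte or epithelial marker was in the table; 1 of 6 granulocyte, 1 of 5 fibroblast and 2 of 6 lymphocyte markers were, at no more than 18.1 CPM summed. On the second principal component (7.47% of the variance) MSN-PEG500 replicate 3 stood apart at 19.1 against 4.85 and 3.48 for the other libraries of its group, so results that rest on it are given without it too. Bulk RNA cannot tell fewer cells of a kind from less RNA per cell. Nothing in the labels ties the 3 libraries of a group to separate cultures; each p-value therefore reads only the scatter among these samples, and that scatter may be technical.

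Per length, ferritin mRNA far exceeded the other members. In control cells the deposited FPKM was 4304 ± 224 for Fth1 and 923 ± 10.2 for Ftl1 (SD, n = 3). Tfrc followed at 75.0 ± 7.17 FPKM, Hmox1 at 62.1 ± 2.45, Slc11a1 at 39.6 ± 3.24, Blvrb at 38.3 ± 1.67, Ireb2 at 22.8 ± 0.340 and Slc11a2 at 8.65 ± 0.329. Slc40a1 at 0.978 ± 0.0942 and Ncoa4 at 0.952 ± 0.150 were the lowest, which rested on 69 to 73 and 78 to 112 counts in a control library. Over the 5 groups, 9 of the 10 members differed in edgeR's quasi-likelihood F-test, which called 49.7% of all genes; with 1 library left out the count was 8 to 10. Ireb2 did not pass (adjusted p = 0.0690).

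**Figure D1:**
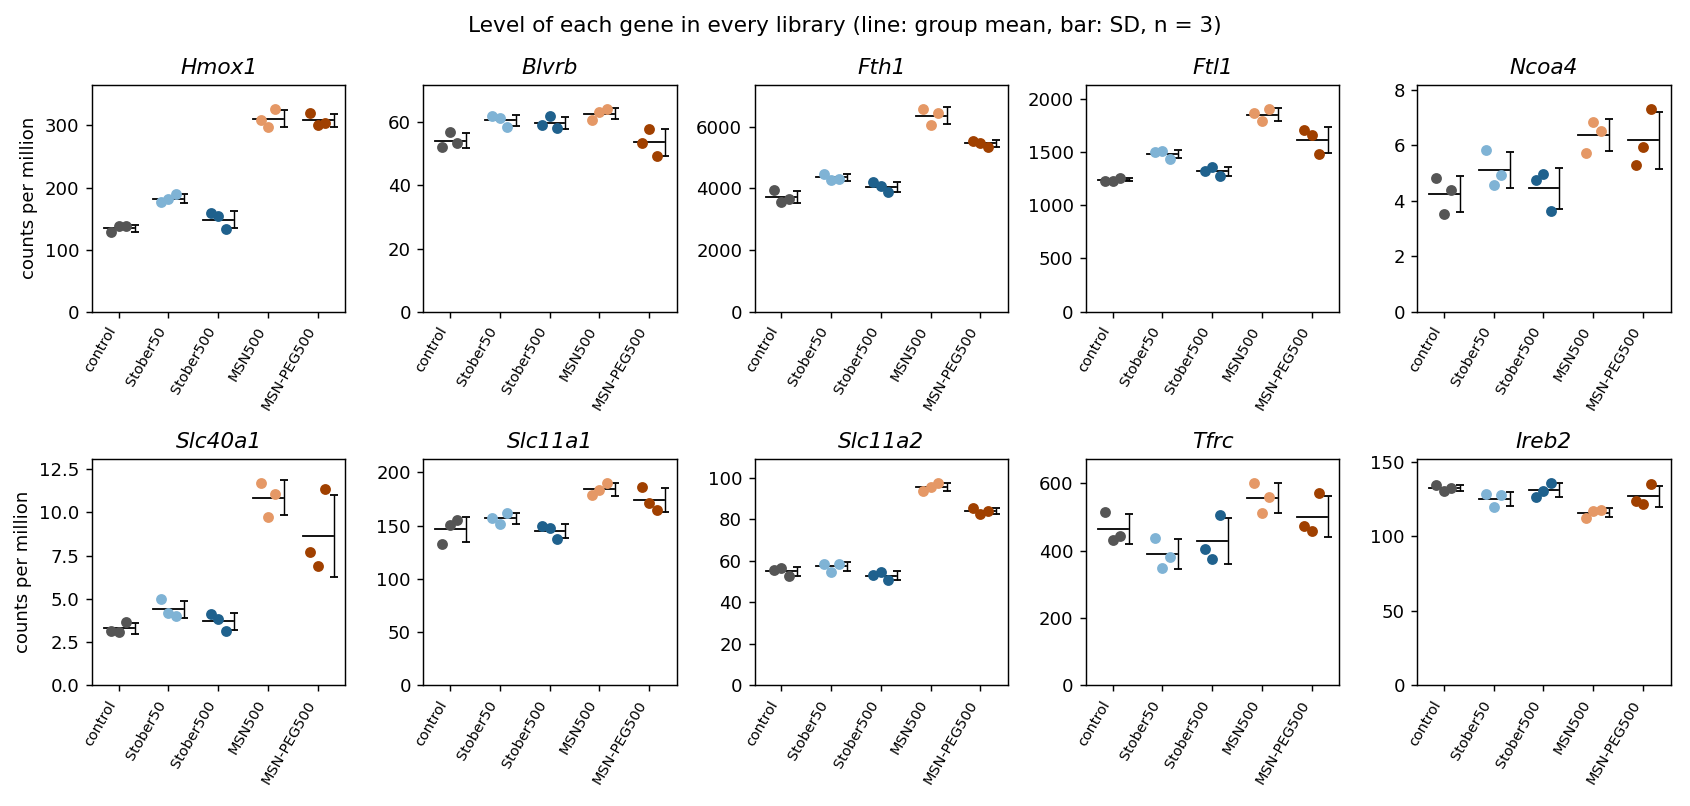
Level of each gene in CPM (vertical axis, starting at 0 and scaled per gene) in each of the 15 libraries, by group; the line is the group mean and the bar its SD (n = 3). For Hmox1, Fth1, Slc40a1, Slc11a1 and Slc11a2 all libraries of both mesoporous groups lie above every other library. For Ftl1, Ncoa4 and Tfrc the mesoporous means are highest but libraries overlap other groups, whereas Ireb2 stays between 113 and 136 CPM in every library.

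Hmox1 encodes heme oxygenase 1, the inducible enzyme that splits heme into iron, carbon monoxide and biliverdin (ENSMUSG00000005413, GRCm38 chromosome 8, 75093591 to 75100596, plus strand). It stood at 128, 137 and 138 CPM in the control libraries. In Stober50 it was at 176, 181 and 189 CPM and in Stober500 at 159, 153 and 133. In MSN500 it was at 308, 298 and 326 CPM and in MSN-PEG500 at 320, 301 and 304. Each library of both mesoporous groups lay above every other library, and the Stober50 libraries lay between those and control. Hmox1 rose 2.43-fold with MSN500 (log2 change 1.28 ± 0.05 SE, adjusted p = 3.08e-16) and 2.39-fold with MSN-PEG500 (1.26 ± 0.05, adjusted p = 6.72e-16). It rose 1.37-fold with Stober50 (0.46 ± 0.05, adjusted p = 3.52e-06).

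With Stober500 the log2 change of Hmox1 was 0.15 ± 0.05 (adjusted p = 0.231), and the libraries overlapped control. Without Stober500 replicate 3, the lowest of its group, it was 0.22 (adjusted p = 0.0214); over all 14 alternative settings the adjusted p ran from 0.0214 to 0.604. The mesoporous particles did not separate on this gene: MSN-PEG500 minus MSN500 was -0.02 on the log2 scale, with a 95% interval from -0.13 to 0.08 (adjusted p = 0.832). In order of level, control and Stober500 did not differ, Stober50 lay above Stober500 (0.31 ± 0.05, adjusted p = 0.000941), and both mesoporous groups lay above Stober50 (0.80 ± 0.05 for MSN-PEG500, adjusted p = 5.07e-12).

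Blvrb encodes biliverdin reductase B, which also reduces flavins (ENSMUSG00000040466, chromosome 7, 27447978 to 27466144, plus strand). Its levels were 52.3, 56.8 and 53.4 CPM in control and 60.9, 63.3 and 64.2 in MSN500. MSN-PEG500 stood at 53.5, 58.0 and 49.4 CPM, overlapping control. Blvrb rose 1.21-fold with MSN500 (log2 change 0.28 ± 0.05, adjusted p = 8.07e-05), while the change with MSN-PEG500 was 0.04 ± 0.05 (adjusted p = 0.603). The pegylated particle gave lower Blvrb than MSN500 by the direct test (-0.24 ± 0.05, adjusted p = 0.00567), and without MSN-PEG500 replicate 3 the difference was -0.18 (adjusted p = 0.0375). Over the 14 alternatives for that difference, the adjusted p ran from 0.00124 to 0.0375.

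Blvrb also rose with Stober50, where the libraries were at 62.0, 61.4 and 58.6 CPM (log2 change 0.18 ± 0.05, adjusted p = 0.0317). That call was lost without control replicate 1 (adjusted p = 0.142), control replicate 3 (0.0783), Stober50 replicate 1 (0.0958) or Stober50 replicate 2 (0.101), and the adjusted p ran from 0.0159 to 0.142 over all 14 alternatives. With Stober500 (59.2, 62.0 and 58.3 CPM) the change was 0.15 ± 0.05 (adjusted p = 0.228), although each Stober500 library lay above every control library.

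Ferritin takes up and mineralizes iron in a hollow shell. Fth1, the heavy chain with ferroxidase activity (ENSMUSG00000024661, chromosome 19, 9982703 to 9985092, plus strand), was at 3946, 3572 and 3668 CPM in control and at 6573, 6058 and 6462 in MSN500. It was at 5544, 5490 and 5346 CPM in MSN-PEG500, at 4483, 4280 and 4306 in Stober50 and at 4195, 4063 and 3868 in Stober500. The MSN500 libraries lay above all MSN-PEG500 libraries, which lay above all others. Its share of all counts went from 0.373% ± 0.0194 in control to 0.636% ± 0.0271 in MSN500 (SD, n = 3). Fth1 rose 1.79-fold with MSN500 (log2 change 0.84 ± 0.04, adjusted p = 1.15e-14), 1.52-fold with MSN-PEG500 (0.61 ± 0.04, adjusted p = 1.07e-11) and 1.18-fold with Stober50 (0.24 ± 0.04, adjusted p = 0.000786). With Stober500 the change was 0.12 ± 0.04 (adjusted p = 0.235). MSN-PEG500 lay below MSN500 by 0.23 ± 0.04 (log2 change -0.23, adjusted p = 0.00156), and above Stober50 by 0.36 ± 0.04 (adjusted p = 2.06e-07).

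Ftl1, the light chain that helps form the iron core (ENSMUSG00000050708, chromosome 7, 45457944 to 45459884, minus strand), was at 1228, 1231 and 1253 CPM in control. It was at 1864, 1788 and 1901 CPM in MSN500 and at 1701, 1662 and 1477 in MSN-PEG500. In Stober50 it was at 1503, 1505 and 1434 CPM and in Stober500 at 1318, 1354 and 1275. Every treated library lay above every control library. Ftl1 rose 1.57-fold with MSN500 (log2 change 0.65 ± 0.04, adjusted p = 4.40e-12), 1.36-fold with MSN-PEG500 (0.44 ± 0.04, adjusted p = 1.03e-08) and 1.21-fold with Stober50 (0.28 ± 0.04, adjusted p = 0.000259); the change with Stober500 was 0.09 ± 0.04 (adjusted p = 0.409).

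Between particles, MSN-PEG500 gave less Ftl1 than MSN500 (-0.21 ± 0.04, adjusted p = 0.00484; -0.15 and adjusted p = 0.0297 without MSN-PEG500 replicate 3). It gave more than Stober50 (0.16 ± 0.04, adjusted p = 0.00598), a call lost without MSN-PEG500 replicate 1 (adjusted p = 0.0618, the highest of the 14 alternatives, which reached down to 6.13e-05). Stober50 lay above Stober500 (0.18 ± 0.04, adjusted p = 0.0247). That call was lost without Stober50 replicate 1 (0.0830) or 2 (0.101), or without Stober500 replicate 1 (0.0795), 2 (0.0522) or 3 (0.0571), and the adjusted p ran from 0.00312 to 0.101. The Ftl1 values are uncertain in their source: 34.6% of its exonic bases overlap the models of Gm22133 on the same strand or Gm10252 on the other, and 58.4% of its 50-base windows also occur in transcripts of 17 other genes, Ftl1-ps1 foremost. For Fth1 that share was 1.59%.

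The counts of heavy over light chain were 3.01 ± 0.172 in control, 2.94 ± 0.0868 in Stober50 and 3.07 ± 0.0968 in Stober500 (SD, n = 3). They were 3.44 ± 0.0757 in MSN500 and 3.39 ± 0.197 in MSN-PEG500. In MSN-PEG500, replicates 1 and 2 were at 3.26 and 3.30 and the outlying replicate 3 at 3.62, while the highest control library was at 3.21. All libraries of both mesoporous groups had a higher ratio than any of the other 9. The two-sided exact permutation test against control gave p = 0.1 for each mesoporous particle, the smallest it can give with 3 libraries against 3, and 0.7 and 0.6 for Stober50 and Stober500. The ratio carries the uncertainty of the Ftl1 counts.

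**Figure D2:**
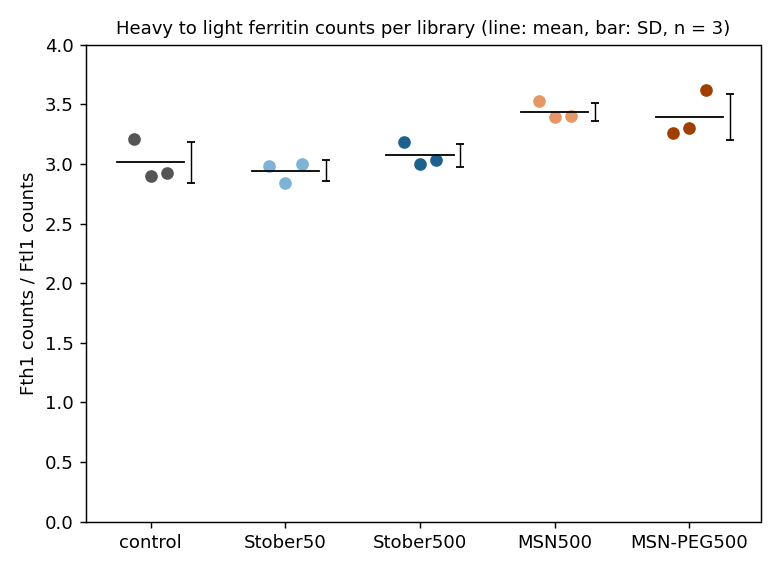
Ratio of Fth1 to Ftl1 counts (vertical axis, no unit, starting at 0) in each of the 15 libraries, by group, with the group mean as a line and its SD as a bar (n = 3). The 6 libraries with mesoporous particles lie at 3.26 to 3.62 and the other 9 at 2.84 to 3.21.

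Ncoa4 encodes the receptor that carries ferritin to lysosomes, where its iron is released (ENSMUSG00000056234, chromosome 14, 32159865 to 32179855, plus strand). It was low, at 71 to 151 counts per library. Its levels were 4.81, 3.51 and 4.397 CPM in control, 5.72, 6.84 and 6.51 in MSN500, and 5.28, 5.94 and 7.30 in MSN-PEG500. Each mesoporous library lay above every control library. Ncoa4 rose 1.58-fold with MSN500 (log2 change 0.66 ± 0.14, adjusted p = 0.000530) and 1.51-fold with MSN-PEG500 (0.59 ± 0.15, adjusted p = 0.00232; 0.45 and adjusted p = 0.0272 without MSN-PEG500 replicate 3). Stober50 (5.82, 4.56 and 4.92 CPM) and Stober500 (4.75, 4.97 and 3.61 CPM) overlapped control, with changes of 0.28 ± 0.15 (adjusted p = 0.259) and 0.09 ± 0.15 (adjusted p = 0.867).

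Of the 50-base windows of Ncoa4, 17.9% also occur in Gm6768. In the authors' deposited table, which holds exon comparisons as well, the exon of Ncoa4 at 32159865 to 32160010 had a log2 ratio of 1.41 for control over MSN500 after correction for the gene's counts. The authors' score there was 28.0, a corrected chi-square p as -10 log10 with replicates not modelled, while their log2 ratio for the whole gene was -0.53 for control over MSN500. For MSN500 over Stober50 the same exon had a log2 ratio of -1.15, with a score of only 0.436. For no other member did that table hold an exon value.

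Slc40a1, ferroportin, moves iron out of the cell (ENSMUSG00000025993, chromosome 1, 45908070 to 45925594, minus strand). It showed the largest fold of the 10 members and one of the lowest levels, at 62 to 257 counts per library. Control libraries were at 3.14, 3.11 and 3.67 CPM and MSN500 libraries at 11.7, 9.74 and 11.1. MSN-PEG500 libraries were at 7.71, 6.90 and 11.4 CPM. All 6 mesoporous libraries lay above the other 9, and within MSN-PEG500 replicate 3 was the high one. Slc40a1 rose 3.44-fold with MSN500 (log2 change 1.78 ± 0.15, adjusted p = 7.21e-10) and 2.74-fold with MSN-PEG500 (1.45 ± 0.16, adjusted p = 8.00e-08; 1.22 and adjusted p = 8.97e-08 without replicate 3).

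MSN-PEG500 minus MSN500 was -0.33 for Slc40a1, with a 95% interval from -0.60 to -0.06 and an adjusted p of 0.119. Without MSN-PEG500 replicate 3 the difference was -0.57 and passed (adjusted p = 0.00426), and over the 14 alternatives the adjusted p ran from 0.00426 to 0.354. Stober50 (4.97, 4.20 and 4.04 CPM) lay wholly above control, but its change of 0.43 ± 0.17 did not pass (adjusted p = 0.135). It passed in a fit of the 6 libraries of these groups alone (adjusted p = 0.0486, in a range up to 0.332). Stober500 (4.12, 3.81 and 3.15 CPM) overlapped control, with a change of 0.19 ± 0.18 (adjusted p = 0.733).

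Slc11a2, the divalent metal transporter DMT1, passes iron from the endosome to the cytosol (ENSMUSG00000023030, chromosome 15, 100387898 to 100425072, minus strand). It was at 55.8, 56.6 and 52.6 CPM in control, 93.8, 95.4 and 97.5 in MSN500 and 85.3, 82.8 and 83.9 in MSN-PEG500. The groups with mesoporous particles were apart from each other and from the rest. It rose 1.82-fold with MSN500 (log2 change 0.86 ± 0.04, adjusted p = 8.27e-15) and 1.59-fold with MSN-PEG500 (0.67 ± 0.04, adjusted p = 2.75e-12), and MSN-PEG500 lay below MSN500 (-0.20 ± 0.04, adjusted p = 0.00555). Stober50 (58.5, 54.8 and 58.6 CPM) and Stober500 (53.4, 54.6 and 50.6 CPM) overlapped control; their changes were 0.08 ± 0.04 (adjusted p = 0.326) and -0.05 ± 0.05 (adjusted p = 0.710). Of its exonic bases, 6.33% overlap Gm5475 on the other strand, and 4.27% of its 50-base windows occur in other genes.

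Slc11a1, known as NRAMP1, is the related transporter of the phagosome membrane in macrophages (ENSMUSG00000026177, chromosome 1, 74375203 to 74386062, plus strand). Its levels were 133, 151 and 155 CPM in control, 178, 183 and 190 in MSN500 and 186, 171 and 165 in MSN-PEG500. All mesoporous libraries lay above the other 9. The rises were smaller than for Slc11a2, at 1.32-fold with MSN500 (log2 change 0.40 ± 0.05, adjusted p = 8.82e-07) and 1.24-fold with MSN-PEG500 (0.31 ± 0.05, adjusted p = 4.91e-05), a contrast between genes that was not tested. MSN-PEG500 minus MSN500 was -0.09, with a 95% interval from -0.20 to 0.02 (adjusted p = 0.312). Stober50 (157, 152 and 162 CPM) had a change of 0.12 ± 0.05 (adjusted p = 0.178) and Stober500 (150, 148 and 137 CPM) one of -0.01 ± 0.05 (adjusted p = 0.976). MSN-PEG500 lay above Stober50 by 0.19 ± 0.05 (adjusted p = 0.00728), a call lost without MSN-PEG500 replicate 1 (adjusted p = 0.0742, the highest of the 14 alternatives, which reached down to 0.00315).

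Tfrc, the transferrin receptor, brings in iron bound to transferrin (ENSMUSG00000022797, chromosome 16, 32608920 to 32632794, plus strand). It varied widely between libraries of a group, at 515, 433 and 445 CPM in control, 439, 350 and 382 in Stober50 and 404, 375 and 507 in Stober500. It was at 601, 511 and 560 CPM in MSN500 and at 474, 458 and 570 in MSN-PEG500. Every treated group overlapped control. The log2 changes against control were 0.33 ± 0.13 with MSN500 (adjusted p = 0.0714), 0.17 ± 0.13 with MSN-PEG500 (adjusted p = 0.390), -0.23 ± 0.13 with Stober50 (adjusted p = 0.353) and -0.11 ± 0.13 with Stober500 (adjusted p = 0.804). The change with MSN500 passed with DESeq2 (adjusted p = 0.0454), limma-voom (0.00818) and the fit of 6 libraries alone (0.0187), in a range up to 0.193.

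Directly compared, Tfrc was higher with MSN500 than with Stober50 (log2 difference 0.56 ± 0.13, adjusted p = 0.00767), and all MSN500 libraries lay above all Stober50 libraries. It was also higher than with Stober500 (0.44 ± 0.13, adjusted p = 0.0240). The second call was lost without Stober500 replicate 1 (0.0799) or 2 (0.0883), or without MSN500 replicate 1 (0.0804) or 3 (0.0533), with adjusted p from 0.000726 to 0.0883 over the 14 alternatives. It was also lost in the fit of the 6 libraries of these groups alone (0.0709). Among neighbours in the order of levels, Tfrc gave no pair of groups that differed, nor did Blvrb, Ncoa4 or Ireb2.

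Ireb2 encodes iron regulatory protein 2, which binds the hairpins above when iron is low and is itself set mainly by protein breakdown (ENSMUSG00000032293, chromosome 9, 54863755 to 54912534, plus strand). It was the 1 member that fell. Control libraries were at 135, 131 and 132 CPM and MSN500 libraries at 113, 117 and 118, with no overlap. The fall with MSN500 was 0.918-fold of control (log2 change -0.12 ± 0.04, adjusted p = 0.0214). This call was lost without control replicate 1 (0.0619), 2 (0.0675) or 3 (0.0757) and without MSN500 replicate 1 (0.0978) or 3 (0.0604), and the adjusted p ran from 0.00514 to 0.0978. The changes with MSN-PEG500 (124, 122 and 135 CPM), Stober50 (128, 120 and 128 CPM) and Stober500 (127, 131 and 136 CPM) were -0.01 ± 0.04, -0.06 ± 0.04 and -0.01 ± 0.04, with adjusted p values of 0.942, 0.409 and 0.945.

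**Figure D3:**
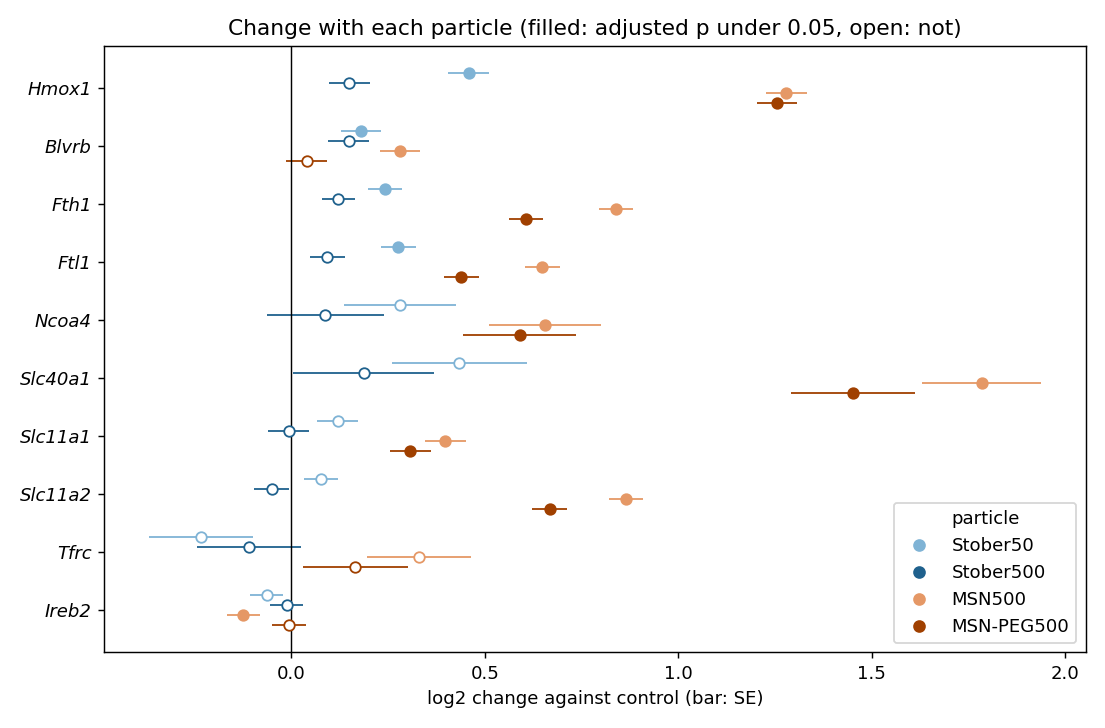
Log2 change against control (horizontal axis) of each of the 10 genes with each particle; points are estimates from edgeR's quasi-likelihood fit, bars their SE, and filled points passed at an adjusted p under 0.05. The mesoporous particles give the largest changes, 1.78 for Slc40a1 and 1.28 for Hmox1 with MSN500, and Stober500 has open points only.

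Across the members, MSN500 gave 8 higher and 1 lower, where 21.6% of all genes were called higher and 21.2% lower. Of the 10 members, 6 rose by at least 0.5 on the log2 scale, against 5.74% of all genes. MSN-PEG500 gave 7 higher and 0 lower beside 17.5% and 16.9% of all genes, with 5 members past 0.5 beside 5.2% of all genes; without MSN-PEG500 replicate 3, 7 members were again called. The median log2 change of the 10 members was 0.65 with MSN500 and 0.52 with MSN-PEG500, and that of all genes was -0.0040 and -0.011. These comparisons share the control libraries, and the members were chosen with earlier results of these data known. Their values are therefore given side by side only.

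Stober50 gave 4 higher and 0 lower beside 3.85% of all genes higher and 3.72% lower, and the members' median was 0.21. The median with Stober500, where no member was called, was 0.09. Stober50 exceeded Stober500 for Hmox1 and Ftl1, 2 of 10 members, where 1.41% of all genes were called higher and 0.828% lower. Hmox1 alone was called there without Stober50 replicate 1 or 2 or any 1 of the Stober500 libraries, since the Ftl1 call was then lost.

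Pore structure and coating were compared directly among the 500 nm particles, with the doses differing as stated. MSN500 against Stober500 gave 9 members higher and 1 lower (19.9% of all genes higher, 19.5% lower), which fell to 7 or 8 called members when 1 library was left out, through Blvrb and Ireb2, whose differences were small, and Tfrc, whose SE of 0.13 was the larger. Blvrb (log2 difference 0.13, adjusted p = 0.0422) was lost there without Stober500 replicate 1 (0.113) or 3 (0.0682) or MSN500 replicate 2 (0.102) or 3 (0.0961), in a range from 0.0204 to 0.123. Ireb2 (-0.11, adjusted p = 0.0381) was lost without Stober500 replicate 2 (0.0680) or 3 (0.226) or any 1 MSN500 library (0.0613 to 0.148), in a range from 0.00794 to 0.226. With all libraries kept, DESeq2 called 8 members for this pair, Blvrb (0.0575) and Ireb2 (0.0502) being lost. Blvrb was lost with upper quartile factors too (0.123), and Ireb2 with no filter on low counts (0.0691). MSN-PEG500 against MSN500 gave 0 higher and 4 lower, namely Blvrb, Fth1, Ftl1 and Slc11a2, beside 4.1% of all genes higher and 3.92% lower. Without MSN-PEG500 replicate 3 there were 5, Slc40a1 being the one added. MSN-PEG500 against Stober500 gave 7 higher and 0 lower (17.6% and 16.9% of all genes). Of these, Ncoa4 was lost without MSN-PEG500 replicate 3 (0.36, adjusted p = 0.0736, in a range from 0.00316 to that value). Calls gained there were Blvrb, lower, without MSN-PEG500 replicate 2 (adjusted p = 0.0266) or with upper quartile factors (0.0399), in a range up to 0.499, and Tfrc, higher, without Stober500 replicate 3 (0.0294) or with limma-voom (0.0289), in a range up to 0.421.

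Against Stober50, MSN500 gave 8 higher and 0 lower (17.6% and 16.4% of all genes), and MSN-PEG500 gave 7 higher and 1 lower, Blvrb (17.4% and 15.7% of all genes). For MSN500, Ncoa4 was lost without Stober50 replicate 2 (adjusted p = 0.128) or 3 (0.0852) or MSN500 replicate 2 (0.125) or 3 (0.0868), in a range down to 0.0112. It was also lost with DESeq2 (0.0582). For MSN-PEG500, 5 members were called without replicate 1 of that group, which added Ncoa4 (0.0363) and ended the calls of Blvrb (0.0839), Ftl1, Slc11a1 and Tfrc (0.0645). The Blvrb call (-0.14, adjusted p = 0.0409) was also lost without Stober50 replicate 1 (0.122) or 2 (0.111) or MSN-PEG500 replicate 3 (0.262), in a range down to 0.00614. DESeq2 (0.0571) and the fit of the 6 libraries alone (0.0752) did not call Blvrb either. The Tfrc call was also lost without Stober50 replicate 2 (0.154) or 3 (0.105) or MSN-PEG500 replicate 3 (0.170), in a range down to 0.00297, and Ncoa4 was gained without Stober50 replicate 1 (0.0440). Tfrc was lost with upper quartile factors as well (0.0511).

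Around the members, 69 of 84 listed genes of heme and iron handling passed the filter. With MSN500, 30 were higher and 12 lower, 60.9% of those tested, beside the 42.9% of all genes. With MSN-PEG500, 21 were higher and 10 lower, 44.9% beside 34.4% of all genes. With Stober50, 4 were higher and 1 lower, 7.25% beside 7.57%, which is no more than the background. With Stober500 edgeR called 0, DESeq2 1 (of 97 it called among all genes) and limma-voom 0; 11 of 69 had an unadjusted p under 0.05, where 1526 of all 12798 genes had. The lists' median log2 changes with MSN500 lay between 0.07 and 0.23, against 0.65 for the 10 members. Both lists and members were chosen with earlier results of these data known, and this contrast was not tested. The genes named from these lists are the largest changes in each direction.

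In heme synthesis, 3 of 8 genes were higher with MSN500 and 2 with MSN-PEG500, and 0 were lower. Of all genes, 42.9% and 34.4% were called either way with these particles, and 21.6% and 17.5% were called higher. Alas1, the rate-limiting enzyme of heme synthesis, was at 34.9 ± 0.594 CPM in control and 44.8 ± 1.13 in MSN500 (log2 change 0.43 ± 0.05) and changed by 0.32 ± 0.06 with MSN-PEG500. Alad changed by 0.24 with MSN500 (0.11 with MSN-PEG500, not called), and Fech, which inserts iron into the ring, by 0.11 with MSN500 and 0.16 with MSN-PEG500. Of 8 other genes of heme breakdown and heme transport, 5 were higher and 2 lower with MSN500, and 3 were higher and 0 lower with MSN-PEG500. Blvra, biliverdin reductase A, changed by 0.40 ± 0.04 and 0.33 ± 0.04 with these particles, the heme-binding Hebp1 by 0.33 and 0.31, and Slc48a1, which brings heme from lysosomes to the cytosol, by 0.33 and 0.20. Slc46a1, a folate transporter that also takes heme, changed by -0.35 and the scavenger receptor gene Lrp1 by -0.21 with MSN500; with MSN-PEG500 neither was called (-0.10 and 0.05).

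Iron uptake and reduction showed 4 higher and 1 lower of 8 genes with MSN500, and 3 and 1 with MSN-PEG500. Of all genes, 42.9% and 34.4% were called either way with these particles. Steap3, the endosomal ferrireductase that acts ahead of DMT1, was at 33.1 ± 2.94 CPM in control, 47.2 ± 2.75 in MSN500 and 48.1 ± 3.31 in MSN-PEG500 (log2 changes 0.58 ± 0.07 and 0.60 ± 0.07). Mcoln1, a lysosomal cation channel, changed by 0.57 and 0.49. Slc39a8, a metal importer, changed by 0.84 ± 0.22 and 0.80 ± 0.23 from only 0.867 ± 0.218 CPM. Hfe, a partner of the transferrin receptors, was at 40.4 ± 0.838 CPM in control and 25.8 ± 1.02 in MSN500 (-0.58 ± 0.06), and its log2 change with MSN-PEG500 was -0.44.

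Iron sensing and chaperones gave 4 higher and 2 lower of 7 genes with MSN500 and 2 and 2 with MSN-PEG500. The shares of all genes called either way were 42.9% and 34.4%. Aco1, which doubles as iron regulatory protein 1, changed by 0.29 ± 0.05 and 0.27 ± 0.05. Fbxl5 and Herc2, ubiquitin ligase genes of iron regulatory protein control, changed by -0.21 and -0.30 with MSN500 and by -0.17 and -0.20 with MSN-PEG500. Pcbp1, an iron chaperone for ferritin, changed by 0.20 and Bola2 by 0.16 with MSN500, while neither was called with MSN-PEG500 (0.08 and -0.07). Glrx3 was called with both, at 0.12 and 0.14. With Stober50, Herc2 changed by -0.28 ± 0.05 and Pcbp1 by 0.15.

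Of 22 genes of mitochondrial iron and iron-sulfur assembly, 6 were higher and 5 lower with MSN500 and 3 and 5 with MSN-PEG500, shares near the 42.9% and 34.4% of all genes called. Hscb, a co-chaperone of cluster transfer, changed by 0.41 and 0.38 with these particles. Isca1 was higher with both, by 0.29 each. Fdx1 (0.37) and Bola3 (0.30) were called higher with MSN500 and not with MSN-PEG500 (0.15 and 0.13), and Cisd3 was called with MSN-PEG500 (0.30) and not with MSN500 (0.27, adjusted p = 0.0503); these differences between particles are not tested here. Fdxr, ferredoxin reductase, changed by -0.49 and -0.28. The mitochondrial iron importers Slc25a37 and Slc25a28 changed by -0.28 and -0.23 with MSN500; with MSN-PEG500 Slc25a28 changed by -0.36 and Slc25a37 was not called (0.01). Iscu, the scaffold for cluster assembly, changed by -0.24 with MSN-PEG500 and was not called with MSN500 (-0.05), but changed by 0.25 ± 0.06 with Stober50, where Glrx5 changed by 0.24 ± 0.04 (0.26 ± 0.04 with MSN500).

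Of 16 transcription regulators of heme and iron genes, 8 were higher and 2 lower with each mesoporous particle. Beside this, 42.9% of all genes were called either way with MSN500 and 34.4% with MSN-PEG500. Maff, a small MAF partner of NRF2 and BACH1, was at 15.2 ± 1.66 CPM in control, 33.4 ± 4.85 in MSN500 and 30.6 ± 4.84 in MSN-PEG500 (log2 changes 1.20 ± 0.13 and 1.06 ± 0.14). Epas1, the hypoxia factor HIF2A, changed by 0.63 ± 0.15 and 0.81 ± 0.15 from 3.67 ± 0.526 CPM, Nr1h3, which encodes LXR alpha, by 0.52 and 0.38, and Hif1a by 0.50 and 0.47. Usf1 changed by -0.34 and -0.21, Mitf by -0.16 with MSN500 (0.08 with MSN-PEG500, not called), Keap1 by -0.22 with MSN-PEG500 (-0.07 with MSN500, not called), and Usf2 by 0.16 with Stober50. Nfe2l2, which encodes NRF2, and Bach1, its counterpart that represses Hmox1, are named after their values were seen: Nfe2l2 changed by 0.40 ± 0.04 with MSN500 (adjusted p = 2.02e-08) and 0.29 ± 0.04 with MSN-PEG500 (adjusted p = 5.28e-06), and Bach1 by -0.10 ± 0.05 (adjusted p = 0.125) and 0.01 ± 0.05 (adjusted p = 0.915).

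Several of the calls in these lists were marginal and were lost when 1 library, often any of several, was left out. Some were also lost in another fit. With MSN500, Glrx3 was lost with DESeq2 (adjusted p = 0.0749), limma-voom (0.0546) and upper quartile factors (0.115). Fech was lost there with DESeq2 (0.0783) and upper quartile factors (0.129), and Lrp1 in the fit of the 6 libraries alone (0.0529). With MSN-PEG500, Cisd3 was lost with DESeq2 (0.0751), limma-voom (0.0507) and upper quartile factors (0.0653), and Glrx3 with upper quartile factors (0.0940). With MSN500, Fech was lost without control replicate 1 or 2 or any 1 MSN500 library (adjusted p 0.0584 to 0.142), at log2 changes of 0.09 to 0.12. Lrp1 was lost without control replicate 2 or 3 or MSN500 replicate 2 or 3 (0.0718 to 0.193, at -0.20 to -0.12), Bola2 without control replicate 1 or 3 or MSN500 replicate 1 (0.0529 to 0.0740, at 0.14 to 0.15), Slc25a28 without control replicate 2 or 3 or MSN500 replicate 1 (0.0581 to 0.0878, at -0.20 to -0.18), and Mitf without control replicate 2 or MSN500 replicate 1 (0.0644 and 0.0845, at -0.12 and -0.10). Glrx3 with MSN500 was lost without control replicate 2 (0.155, at 0.10) or MSN500 replicate 1 (0.258, at 0.08). With MSN-PEG500, Glrx3 was lost without control replicate 2 or any 1 MSN-PEG500 library (0.0520 to 0.148, at 0.11 to 0.15), and Cisd3 without any 1 control library or MSN-PEG500 replicate 1 or 2 (0.0522 to 0.156, at 0.25 to 0.33). Fbxl5 was lost there without MSN-PEG500 replicate 1 (0.0722, at -0.13), Iscu without replicate 3 (0.0545, at -0.16) and Usf1 without replicate 1 (0.0671, at -0.18) or 3 (0.0700, at -0.16). With Stober50, Pcbp1 was lost without control replicate 1 or 2 or Stober50 replicate 2 or 3 (0.0652 to 0.153, at 0.13 to 0.15), Iscu without control replicate 1 (0.0736, at 0.22) or Stober50 replicate 2 (0.0623, at 0.23), and Usf2 without control replicate 1 or 2 or Stober50 replicate 2 (0.0632 to 0.170, at 0.13 to 0.17). Exons of Alas1, Hebp1, Slc48a1, Pcbp1, Bola2, Fbxl5, Slc25a37, Isca1, Nr1h3, Usf1, Usf2, Hif1a and Keap1 overlap another gene over 1.01% to 10.9% of their bases, so their counts are uncertain to that extent.

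**Figure D4:**
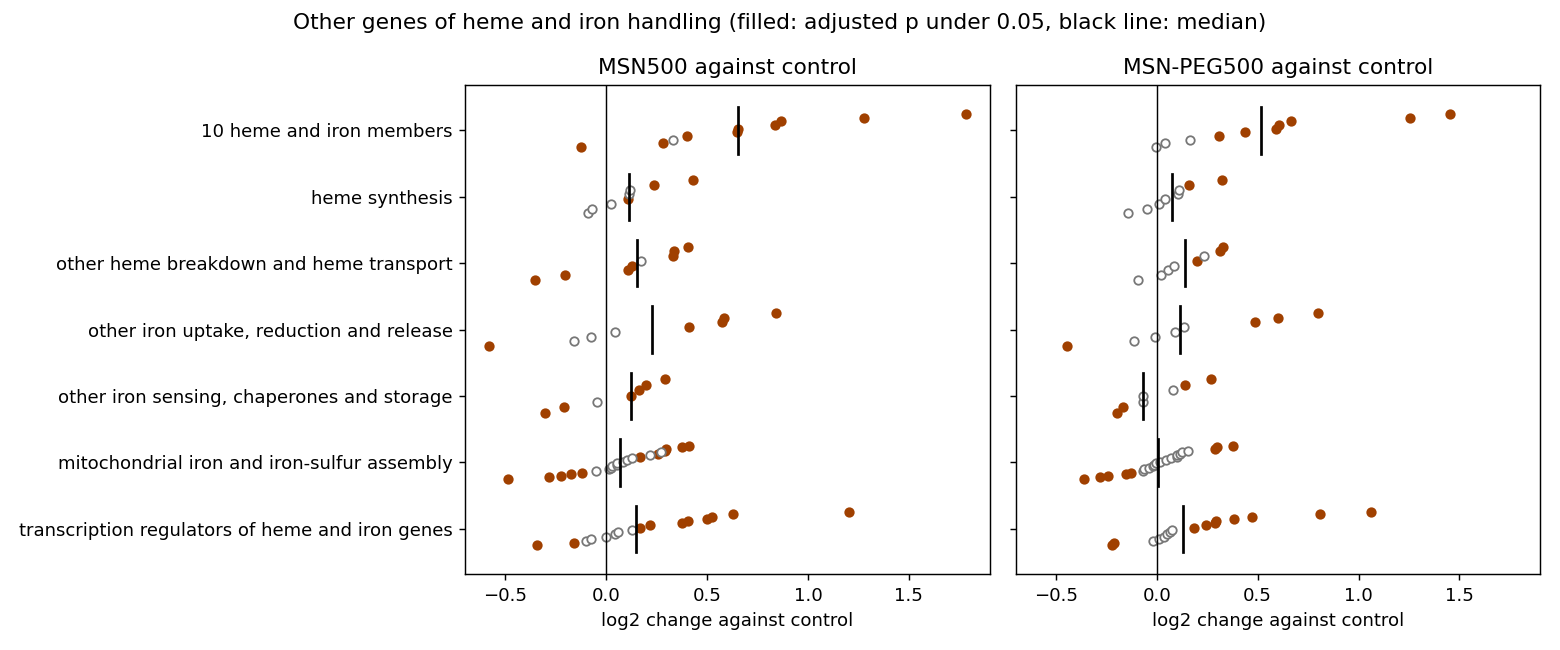
Log2 change against control (horizontal axes) of the 10 members and of 69 further genes in 6 lists, with MSN500 (left) and MSN-PEG500 (right); filled points passed (adjusted p under 0.05) and the black line is the median. The members' medians are 0.65 and 0.52, and the lists' medians lie between 0.07 and 0.23 with MSN500 and between -0.07 and 0.14 with MSN-PEG500.

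Genes whose log2 CPM followed Hmox1 most closely over the 15 libraries were Plekho1, Tmem189, Fam20c, Dnase2a and Tnfsf12 (Pearson r 0.994 to 0.995). Their log2 changes with MSN500 ran from 0.47 for Dnase2a to 2.00 for Tnfsf12, and with Stober50 from 0.18 to 0.56. For Slc40a1 they were Tmem144, Rab1a, the lysosomal membrane gene Lamp1, Rilpl2 and Syngr1 (r 0.980 to 0.987), with log2 changes from 0.53 to 1.14 with MSN500. Because the first principal component (49.6% of the variance) separates the 6 mesoporous libraries from the other 9, these r values mostly describe that split and carry no test. Exons of Tmem189, Dnase2a, Tnfsf12 and Lamp1 overlap other genes over 9.31% to 48.3% of their bases, so these values are uncertain.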

How the data were processed

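RNA of RAW264.7 cells (15 libraries) was sequenced as single reads after TruSeq library preparation, per the labels' protocols. The genome builds GRCm38 and mm10, the aligner Novoalign 2.08.03, limma 3.28.21 and DESeq2 are named, per the submitters' processing notes. The authors deposited raw counts of alignments overlapping a gene by at least 1 base, per the file headers; no source used here says whether strand was used. The deposited FPKM values are counts scaled by exonic length and library reads, and serve here only to compare levels between genes. For genes, the deposited log2 ratio was made with DESeq2, per the file headers, and the deposited exon score is -10 log10 of a corrected p; these are quoted for Ncoa4 only. The deposited exonic length per gene was also read. All 15 count columns matched a sample and 0 belonged to others.

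Counts were analysed with edgeR 4.0.16 in R 4.3.3: filterByExpr left 12798 of 13342 genes, TMM factors were 0.974 to 1.02, and 1 robust quasi-likelihood fit with a mean per group took all 15 libraries (common biological coefficient of variation 0.0418). P-values are two-sided and adjusted by Benjamini-Hochberg over all genes tested; a gene was called at an adjusted p under 0.05. Log2 CPM for correlations and principal components used a prior count of 2. No pair of replicates differed by as little as sampling noise (chi-square per degree of freedom 2.19 to 6.81), so none was merged. The 95% intervals use the SE and degrees of freedom of the quasi-likelihood fit, so they include the scatter among libraries. The code was tested on simulated data.

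The members and lists were chosen with earlier results of these data known. Named beyond the members were up to 3 genes per list and direction with the largest log2 change among those called with MSN500 or MSN-PEG500, up to 3 called with Stober50 or Stober500, and the 5 genes most like Hmox1 and Slc40a1. Positions are from the deposited annotation; hairpins, overlaps and shared 50-base windows are from GENCODE M21. Alternatives were other normalizations and filters, DESeq2 1.42.0, limma-voom (limma 3.58.1), a replicate block, only the 6 libraries compared, and each library left out in turn.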

Additional observations from a re-analysis of the deposited data

How the results depend on the processing

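The fold changes of the members kept their direction wherever they were called. Of the recomputed member values, 1333 stayed on their side of the threshold, 51 lost the call, 13 gained it and 0 reversed; values to which DESeq2 gave no adjusted p were left out. The count of all genes called with Stober500 was 1, and 3 with upper quartile factors, 97 with DESeq2, 2 with limma-voom, 9 with the replicate block and 2 with the 6 libraries alone; leaving out 1 library gave 0 to 90, the highest without Stober500 replicate 3, and 0 to 1 members. With 1 library left out, all genes called ranged from 412 to 892 with Stober50 (969 with all; 584 and 631 without control replicates 1 and 2, 533 and 412 without Stober50 replicates 1 and 2). They ranged from 144 to 302 for Stober50 against Stober500 (287 with all; 158 and 186 without Stober50 replicates 2 and 3, 176 and 144 without Stober500 replicates 1 and 2), with 1 to 2 members. For MSN-PEG500 against MSN500 they ranged from 420 to 1032 (1027 with all; 420, 651 and 606 without MSN500 replicates 1, 2 and 3, 615 without MSN-PEG500 replicate 3). Members called for MSN-PEG500 against Stober50 ranged from 5 (without MSN-PEG500 replicate 1) to 8. Replicate numbers do not pair the samples (1 of 30 same-number correlations over 0.1, range -0.164 to 0.109); with the block, Tfrc passed with MSN500 (adjusted p = 0.0276). Counts were low for Ncoa4 and Slc40a1, whose standard errors were about 0.13 to 0.18 against 0.04 to 0.05 for the abundant members other than Tfrc. The part of depth in this was not tested.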
